A study of Drosophila melanogaster with 4 samples.

Results

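RNA polymerase II was mapped by chromatin immunoprecipitation and sequencing (ChIP-seq) in CME-W1-Cl.8+, a male Drosophila melanogaster cell line from the wing disc (the dorsal mesothoracic disc) of the third larval instar. The regions described here are those on X, 776 of the 5517 enriched regions in the list deposited for the whole series. They were chosen as X regions of that list that overlap, by 1 bp or more, an enriched region of both ChIP replicates. The series holds 2 ChIP libraries, made with the mouse monoclonal antibody ab5408 against the YSPTSPS repeat of the polymerase tail, and 2 input DNA libraries. All 4 come from the same untreated line, and no label says whether replicates were separate cultures, so the spread between them may be technical. The files are lists of called regions with a score each, without read counts, so sequencing depth is unknown. The inputs were not analysed here, and the copy number of X relative to the autosomes in this line is not given in the sources used here. The reference for X was the 4 large autosome arms together, 2L, 2R, 3L and 3R, which hold 3401 regions chosen by the same rule.

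RNA polymerase II transcribes protein-coding genes, and its largest subunit ends in a tail of heptad repeats that the antibody recognises. Polymerase is often concentrated just downstream of promoters, where it can pause, and it is spread over the bodies of genes that are being transcribed. Male flies have a single X, and the MSL complex, a set of proteins and noncoding roX RNAs that acetylates histone H4 at lysine 16 on active X genes, raises transcription from it to match the autosomes. Genes cannot be named for these regions, because no annotation on the build of the lists (FlyBase r5) was used here, so regions are given by position.

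A smaller share of the X regions was found in both replicates. Of the 1068 enriched X regions of the series list, 776 overlapped both replicates (72.7%), against 3401 of 4186 (81.2%) on the autosome arms, and 78.2% over all sequences. The share lay between 80.2% and 82.2% on the 4 autosome arms, all above X. Another 82 X regions overlapped replicate 1 alone, 64 replicate 2 alone and 146 neither. These 292 other regions were short, with 1552 bp as their median, against 1557 bp for the 785 such regions on the autosome arms. Their median scores were 0.45 on X and 0.32 on the autosome arms, where the score is the authors' value for each region, read as a log2 ratio. On X, 181 of the 292 (62.0%) lay within 5 kb of a region found in both replicates, against 63.4% on the autosome arms. The overlap rule was met with room to spare on X, where the least overlap with a replicate was 810 bp. In 33 X regions (4.25%) less than 50% of the sequence was covered in one of the replicates, against 1.50% of regions on the autosome arms.

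X carried about as many regions per Mb as the autosome arms, but they covered more of it. There were 34.6 per Mb on X and 35.2 on the autosome arms, a ratio of 0.983, with single arms between 32.2 (2L) and 42.2 (2R). When the regions of each replicate that overlap these were counted with their own edges, the density was 40.4 ± 0.9 per Mb on X and 38.5 ± 0.3 on the autosome arms (SD, n = 2). The ratio was then 1.05 ± 0.03, so the direction depended on whose edges were used. Coverage did not depend on this in direction. The regions spanned 4.34 Mb, or 19.4% of X, against 16.2% of the autosome arms, where single arms ranged from 14.4% to 18.2%. With replicate edges X was covered to 17.4% in replicate 1 and 17.2% in replicate 2, against 15.1% and 14.8% on the autosome arms. The difference of 2.36 ± 0.03 percentage points (SD, n = 2) was far larger than the spread between replicates, and X was above each of the 4 arms in all 3 lists. The replicate regions counted all overlap a region found in both replicates. This spread therefore leaves out the regions that the replicates did not share, and may be too small. The size of the difference depended on the overlap rule, and it was 0.915 percentage points in the series list when a reciprocal overlap of 50% with each replicate was required. With 2 replicates of a single group an exact sign-flip test cannot give a p under 0.5. No p is therefore given here, and comparisons are made against the replicate spread and the 4 separate arms.

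**Figure D1:**
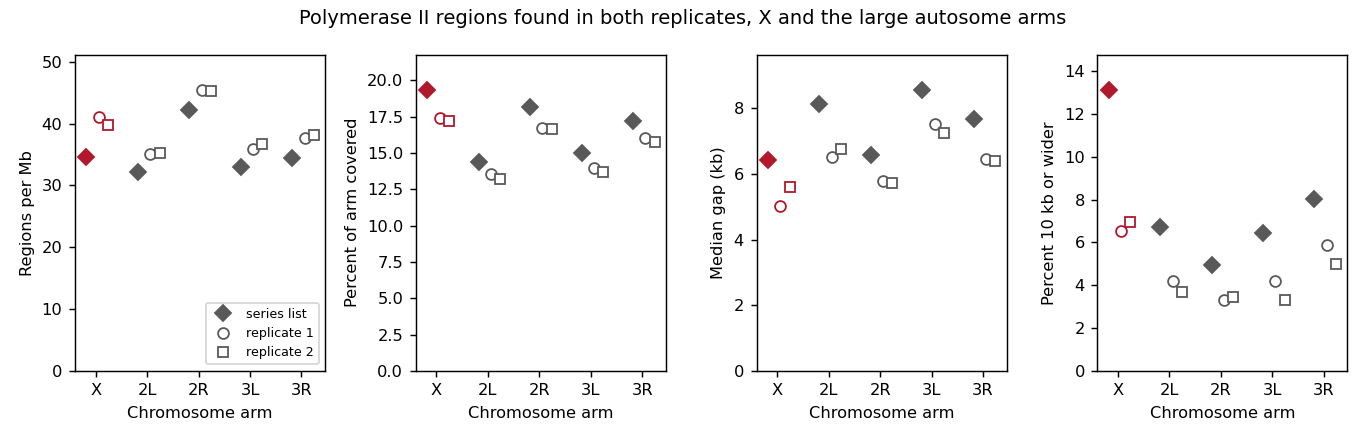
Regions per Mb, percent of the arm covered, median gap between neighbouring regions in kb, and percent of regions 10 kb or wider, for X (red) and for 2L, 2R, 3L and 3R (grey). Filled diamonds are regions of the series list found in both replicates and open symbols are the regions of each replicate that overlap them. X lies inside the range of the other arms in density and above all of them in coverage and in the share of wide regions, which is 13.1% in the series list.

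In the series list the net extra coverage lay in wide regions. Of the 776 X regions, 102 (13.1%) were 10 kb or wider, against 223 of 3401 (6.56%) on the autosome arms, where the share lay between 4.93% on 2R and 8.03% on 3R. There were 4.55 such regions per Mb of X and 2.31 per Mb of the autosome arms. They held 38.5% of the sequence covered on X and 25.9% of that on the autosome arms, with single arms between 18.3% (2R) and 33.0% (3R). With replicate edges X, at 24.0%, was below 3R, at 26.3%, in replicate 1. In replicate 2 X, at 26.4%, was above 3R, at 23.3%. Without the wide regions of the series list, 11.9% of X and 12.0% of the autosome arms was covered, a difference of -0.094 percentage points. This is a net value over narrower classes that differed. Regions of 5 to 10 kb made up 22.4% of regions on X and 19.2% on the autosome arms, while shorter regions made up less on X. The median X region was 3656 bp wide, against 3037 bp on the autosome arms and at most 3145 bp on any of them. Regions of 2 to 5 kb were the largest class on both, with 472 on X (60.8%) and 2324 on the autosome arms (68.3%).

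The excess of wide regions on X was smaller when each replicate's own edges were used. Then 6.51% of the X regions of replicate 1 and 6.96% of those of replicate 2 were 10 kb or wider, against 4.46% and 3.90% on the autosome arms. The difference was 2.56 ± 0.71 percentage points (SD, n = 2), compared with 6.59 in the series list. X was above all 4 arms in both replicates too. Without the wide regions, replicate edges covered 13.0% ± 0.4 of X and 12.1% ± 0.1 of the autosome arms (SD, n = 2), so there the extra coverage was not confined to wide regions. Many wide regions of the series list overlapped more than 1 region of a replicate. How the series list was made from the replicates is not given. Of the 102 wide X regions, 32 (31.4%) were a single region in both replicates, against 98 of 223 (43.9%) on the autosome arms. A wide X region held on average 1.96 regions of replicate 1 and 1.68 of replicate 2, against 1.68 and 1.81 on the autosome arms, so in replicate 2 those of X were the less divided. Counting just the 48 wide X regions that overlapped a region of 10 kb or wider in both replicates left 2.14 per Mb on X, against 121 regions and 1.25 per Mb on the autosome arms. The highest single arm was 3R with 1.54 per Mb.

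**Figure D2:**
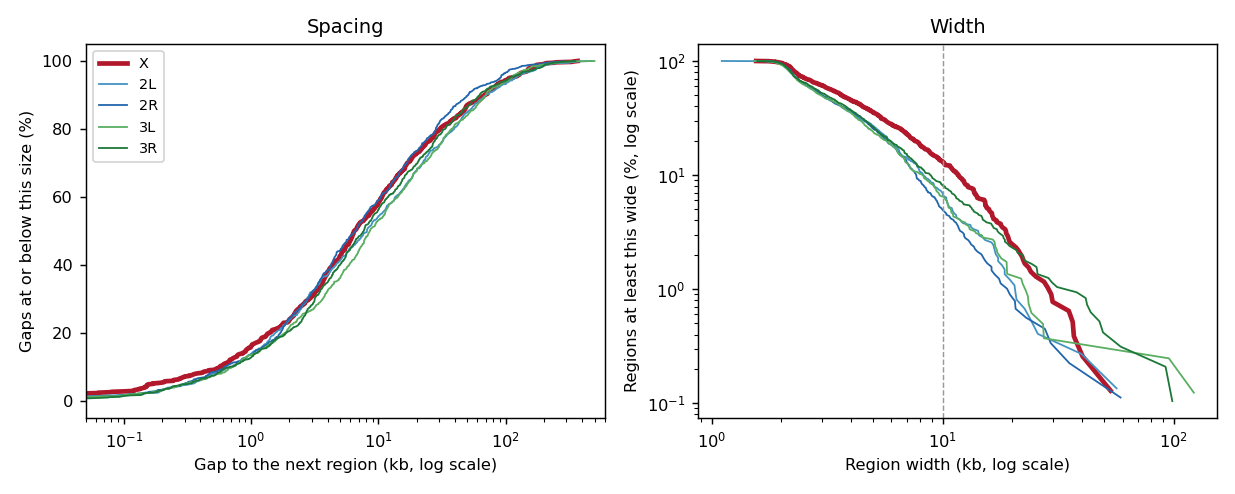
Left, the percent of gaps between neighbouring regions at or below a given size in kb (log scale). Right, the percent of regions at least as wide as a given width in kb (both scales log, dashed line at 10 kb). X is in red and the autosome arms are in blue and green. The gap curves lie close together, while the width curve of X runs above those of the other arms from about 2 kb and meets that of 3R near 20 kb.

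The very widest regions were not on X. At 20 kb or wider X had 19 regions (2.45%), against 47 (1.38%) on the autosome arms, of which 3R had 22 (2.29% of its regions). In the series list the widest X region spanned 53263 bp (positions 17348968 to 17402230), less than the widest of each autosome arm, which ranged from 56559 bp to 122149 bp. With the edges of replicate 2 the widest on X, 36208 bp, was above the widest on 2L, 32277 bp. The region of 53263 bp scored 1.19 in replicate 1 and 1.05 in replicate 2. It was made of 5 regions in replicate 1, the widest of them 36634 bp, and 7 in replicate 2, the widest 19364 bp. Neither replicate called it in one piece.

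The next widest X regions had higher scores. The 40297 bp region at 16308506 to 16348802 scored 1.63 in replicate 1 and 1.69 in replicate 2, and held 5 and 2 regions. The 36959 bp region at 18516464 to 18553422 scored 1.86 and 1.90, and was a single region in replicate 2 but 3 in replicate 1. It stood apart, with empty stretches of 55.0 kb before it and 114 kb after it. The 36531 bp region at 8765786 to 8802316 scored 1.47 and 1.51 and was likewise set apart, 150 kb from the region before it. The 35127 bp region at 1954532 to 1989658 scored 1.85 in replicate 1 and 1.88 in replicate 2, with 2 regions in each. The widest X region that both replicates called in one piece was 29913 bp (9622304 to 9652216), with scores of 1.96 and 2.07.

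Of the other 4 among the 10 widest, 3 had mean replicate scores between 1.59 and 2.03. They lay at 8299960 to 8329436 (29477 bp), at 12551464 to 12579938 (28475 bp) and at 4572416 to 4599874 (27459 bp). The tenth, at 1353156 to 1378460 (25305 bp), had the highest score of the 10, with 2.39 in replicate 1, where it was in 3 pieces, and 2.55 in replicate 2, where it was a single region.

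Wide regions were spread along nearly the whole of X. In the series list each of the 22 full 1 Mb windows of X held at least 1, up to 9 in the window starting at 1000001. On the autosome arms 83 of 95 such windows held one. More wide regions per Mb also make a window without one less likely. With replicate edges X had no wide region in parts 19 and 20, the most proximal of 20 equal parts, in either replicate. The autosome arms together had 7 and 2 there in replicate 1, and 7 and 3 in replicate 2. This was not particular to X, since 2R likewise had none in these parts in either replicate. Neighbouring wide regions on X lay a median of 134 kb apart, against 246 kb on the autosome arms. With replicate edges the medians were 206 ± 1 kb on X and 359 ± 2 kb on the autosome arms (SD, n = 2). This follows in part from their number, since more regions on an arm lie closer together. Of the 102 wide X regions, 45 (44.1%) had another within 50 kb, against 35.4% of 223 on the autosome arms. With replicate edges the shares were 30.0% in replicate 1 and 25.8% in replicate 2 on X, and 27.9% and 26.0% on the autosome arms. That difference, 0.950 ± 1.656 percentage points (SD, n = 2), was within the spread between replicates.

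**Figure D3:**
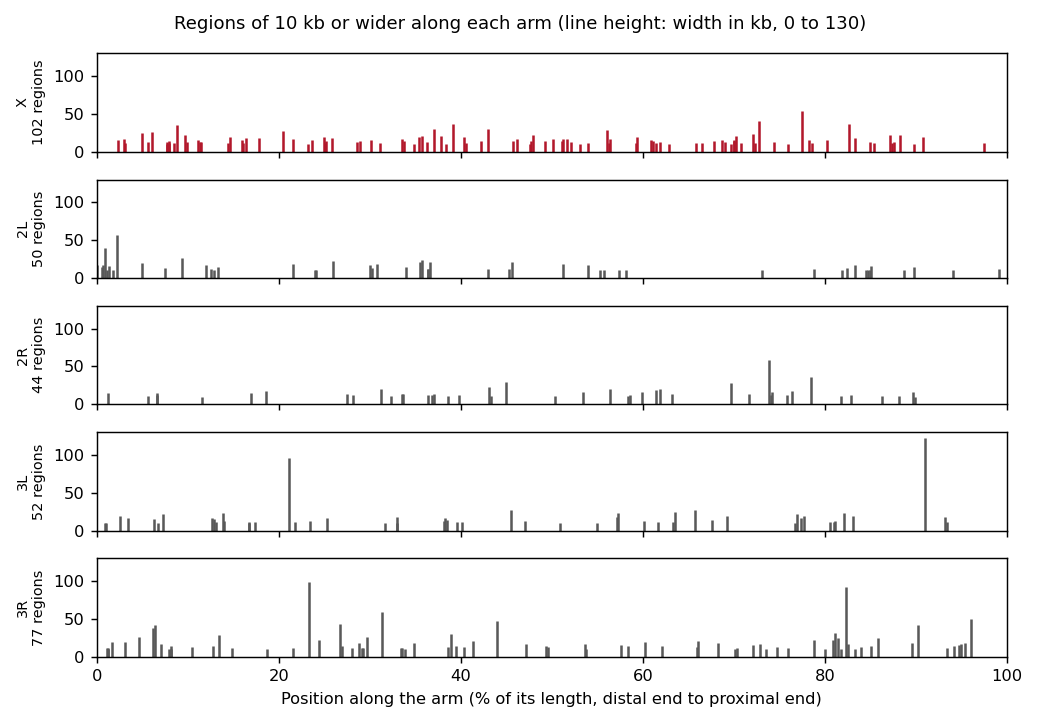
Position of each region of 10 kb or wider along X (red) and the 4 autosome arms (grey), in percent of the arm's length from its distal to its proximal end, with the width in kb as the height of the line. X has 102 such regions, none above 53.3 kb, spread along the arm with few in its most proximal part. The autosome arms have between 44 and 77 each, among them single regions of over 90 kb on 3L and 3R.

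The spacing of regions on X was close to that on the autosome arms. The median gap between neighbouring regions was 6.44 kb on X and 7.68 kb on the autosome arms, with 6.57 kb on 2R, the next lowest arm. With replicate edges it was 5.01 kb in replicate 1 and 5.62 kb in replicate 2 on X, against 6.61 and 6.51 kb. The difference of -1.25 ± 0.50 kb (SD, n = 2) was larger than the spread between replicates. It changed sign, to 1240 bp, when a region needed a reciprocal overlap of 50% with a region of each replicate. The upper end of the distribution was alike. The 95th percentile of gaps was 107 kb on X and 105 kb on the autosome arms, and gaps of 100 kb or more made up 31.8% of X and 31.8% of the autosome arms. There were 44 of these long gaps on X.

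In the series list the gaps on X were shorter mainly beside wide regions. Gaps next to a region of 10 kb or wider had a median of 5.41 kb on X and 7.21 kb on the autosome arms. The other gaps had medians of 7.46 and 7.72 kb. With replicate edges gaps beside wide regions were 4.99 ± 1.08 kb on X and 5.55 ± 0.36 kb on the autosome arms (SD, n = 2), a difference within that spread. The other gaps were then 5.35 ± 0.29 and 6.66 ± 0.002 kb. Which gaps were shorter on X thus depended on whose edges were used.

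How often X regions formed clusters, relative to the autosome arms, depended on the list and the overlap rule. A cluster was taken as 4 or more regions, each within 5 kb of the next. X had 36 of them with 179 regions (23.1%), against 21.8% of regions in 152 clusters on the autosome arms, and single arms ranged from 16.9% (3L) to 29.4% (2R). With replicate edges the shares were 33.0% in replicate 1 and 29.5% in replicate 2 on X, and 25.6% and 26.6% on the autosome arms. The difference of 5.18 ± 3.17 percentage points (SD, n = 2) varied widely between replicates. The highest single arm was 2R, with 31.3% in replicate 1, below X, and 29.5% in replicate 2, level with X. The difference was 12.1 percentage points over all enriched regions of the series list and -5.01 with reciprocal overlap of 50%. Regions with no other within 5 kb numbered 269 on X (34.7%), against 37.3% on the autosome arms. X clusters spanned a median of 34.1 kb, against 28.7 kb, and 18 of the 36 (50.0%) held a wide region, against 49 of 152 (32.2%). The highest single autosome arm in this share was 3L, at 41.4%. A larger share of wide regions also makes a cluster that holds one more likely, and wide regions lengthen a cluster. These differences therefore follow in part from the number of wide regions on X. The largest X cluster held 8 regions, against 10 on the autosome arms.

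That cluster ran from 6148188 to 6190660. Its 8 regions were 3061 to 7505 bp wide, filled 83.2% of its 42.5 kb, and matched 8 regions in each replicate. Scores within it differed, from 0.54 to 2.85. The other clusters with most members had 7 regions each. The widest of these (5582318 to 5659810, 77.5 kb) held 3 wide regions, the largest 19339 bp. The next (11448246 to 11517460, 69.2 kb) held 2 wide regions and had a median score of 1.92. The cluster at 13189540 to 13233500 (44.0 kb) had no wide region and scores from 0.24 to 3.16, the widest range of the 5. The cluster at 21209854 to 21246714 (36.9 kb) lay near the proximal end of X, where regions were few, and its scores were even, from 0.94 to 1.53.

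Regions lay along the whole of X, with dense and thin stretches alternating. Over the 22 full 1 Mb windows the covered share ran from 9.85% to 27.5%, with a median of 19.0%. On the autosome arms it ran from 2.47% to 31.5%, with a median of 16.7% over 95 windows. The lowest X window was thus higher than the lowest on any autosome arm, where these were 2.47% to 7.50%. The highest X window, 1000001 to 2000000, held 38 regions, 9 of them wide, and was covered to 24.6% in replicate 1 and 24.8% in replicate 2. The lowest, 14000001 to 15000000, held 21 regions and was covered to 8.81% and 9.13%. Windows covered above 20% made up 10 of 22 on X (45.5%), against 21 of 95 (22.1%), and windows under 10% made up 1 of 22, against 14 of 95. Partial windows at arm ends were left out, on X that at its thin proximal end. The proximal 1 Mb of X was covered to 7.86%, against 9.45% on the autosome arms. With replicate edges coverage was lower on all arms. The X windows from 20000001 and 21000001 were then at 9.52% and 9.91% in replicate 1, and at 10.6% and 9.70% in replicate 2. The most covered 200 kb window of X, from 15600001, reached 60.3% and held 4 wide regions. With replicate edges it was covered to 54.1% in replicate 1 and 52.9% in replicate 2.

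The distal (telomere) side of an arm is at the low coordinates on X, 2L and 3L and at the high ones on 2R and 3R. In 4 equal parts from distal to proximal, X was covered to 18.9%, 20.5%, 21.8% and 16.3%, and the autosome arms to 16.4%, 17.4%, 14.9% and 16.0%. X differed most in the third of these. With replicate edges it was covered to 19.4% ± 0.3 on X and 13.8% ± 0.1 on the autosome arms (SD, n = 2). The other arms were not alike there. On 2R the share was 19.4% ± 0.1, equal to X within the spread, while 2L had 9.43% ± 0.34 (SD, n = 2 each). In the most proximal part X was at 14.6% ± 0.1 and the autosome arms at 14.8% ± 0.2, a difference within the spread. The 16 wide regions of that part were the fewest of the 4 on X, which held 28, 27 and 31 in the others.

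**Figure D4:**
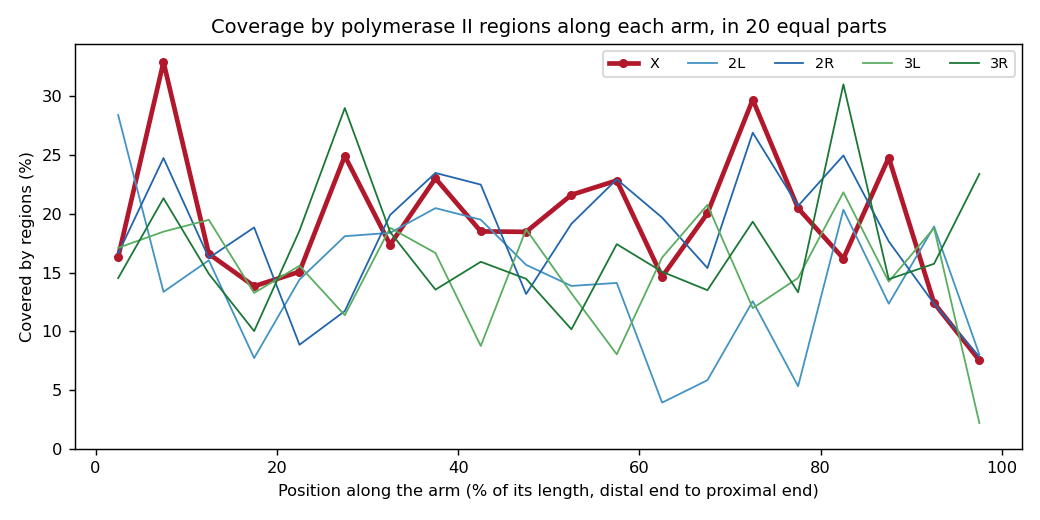
Percent of sequence covered by regions of the series list found in both replicates, in 20 equal parts of each arm from its distal end (left) to its proximal end (right), with X in red and the autosome arms in blue and green. X stays above 12% in all parts but the most proximal, where it falls to a level like that of 2L and 2R, while 3R stays high at that end.

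At its very distal end X was thinner than the autosome arms. The first region of X (138952 to 142498) began 139 kb from the distal end, against 4.75 to 40.8 kb on the autosome arms. It was 3547 bp wide, with scores of 1.56 in replicate 1 and 1.61 in replicate 2. In the distal 0.5 Mb X was covered to 7.99% ± 0.57 (SD, n = 2) with replicate edges, with 14 regions in each replicate, against 23.0% ± 0.8 on the autosome arms. Of these, 2L was highest at 39.7% ± 2.2, and the others lay between 16.5% and 18.0%. The difference between X and the autosome arms together reversed further in. Over the distal 2 Mb X was covered to 19.8% ± 0.1 and the autosome arms to 18.3% ± 0.3, a difference of 1.53 ± 0.44 percentage points (SD, n = 2). In the series list it was 22.0% on X, with single autosome arms from 18.1% to 21.9%. With replicate edges 2R, at 20.1% ± 0.2, was above X. The direction at the distal end depended on the overlap rule, at -0.466 percentage points over 2 Mb with reciprocal overlap of 50%. It also depended on the length considered, at -4.27 percentage points for 1 Mb and 3.41 for 4 Mb.

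At the proximal end X was sparsely covered over 2 Mb, as were most arms. The regions covered 8.69% of the proximal 2 Mb of X, against 12.8% on the autosome arms. With replicate edges it was 7.59% ± 0.05 on X and 11.8% ± 0.2 on the autosome arms (SD, n = 2). This difference rested on 3R, which was covered to 23.1%, whereas 2L had 12.5%, 2R 9.44% and 3L 6.15%. Without 3R the difference was -0.657 percentage points instead of -4.10. Over 4 Mb X was no longer lower, with 15.6% against 14.8%. The last region of X (22413750 to 22416630, 2881 bp) ended 6.20 kb from the proximal end of the assembled arm, against 7.78 to 48.6 kb on the autosome arms. That X region stood alone, 136 kb beyond its neighbour. It scored 1.62 in replicate 1 and 1.41 in replicate 2. Stretches to which reads cannot be mapped uniquely were not separated from stretches that lack polymerase.

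Of the 5 longest gaps between X regions, 3 lay in the proximal part of the arm. The longest, 367 kb (20530533 to 20898011), held no region of any list. A gap of 343 kb (21502219 to 21845637) held 4 regions of the series list that did not overlap both replicates, and 2 of replicate 1. One of 329 kb (14144847 to 14473705) held a single region of replicate 1, and one of 250 kb (19802507 to 20052041) a single region of the series list. The fifth, of 237 kb (12119395 to 12355915), held 23 regions of the series list, 7 of replicate 1 and 3 of replicate 2, and none of the 23 overlapped both replicates.

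Score differences between X regions and autosome regions of the same width were largest at 20 kb or wider and depended on the regions counted. Among regions of 2 to 5 kb, the median replicate score was 1.20 in replicate 1 and 1.21 in replicate 2 on X, against 1.12 and 1.13 on the autosome arms. The difference was 0.082 ± 0.007 (SD, n = 2). By the score of the series list it was 0.064, and 0.023 to 0.039 when overlap with a single replicate was enough. Over all enriched regions of that width in the series list it was 0.0028. From 5 to 10 kb it was 0.13 ± 0.04. Among all regions of 10 kb or wider, X scored 1.57 in replicate 1 and 1.65 in replicate 2, and the autosome arms 1.58 and 1.56. That difference, 0.039 ± 0.066, was within the spread and of opposite sign in the 2 replicates. When width was instead taken from each replicate's own edges, the difference was 0.096 in replicate 1 and 0.089 in replicate 2, larger than the spread between them, although 2R, at 1.93 ± 0.04, was above X at 1.79 ± 0.02 (SD, n = 2). The 19 X regions of 20 kb or wider had medians of 1.79 and 1.80, against 1.48 and 1.46 for the 47 on the autosome arms. This difference was 0.33 ± 0.02 (SD, n = 2). X was not the highest arm in this class, where the 7 regions of 2R had 1.91 ± 0.02, against 1.80 ± 0.01 on X. Over all widths the median difference was 0.15 ± 0.01, larger than in the class of 2 to 5 kb, which holds most regions.

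**Figure D5:**
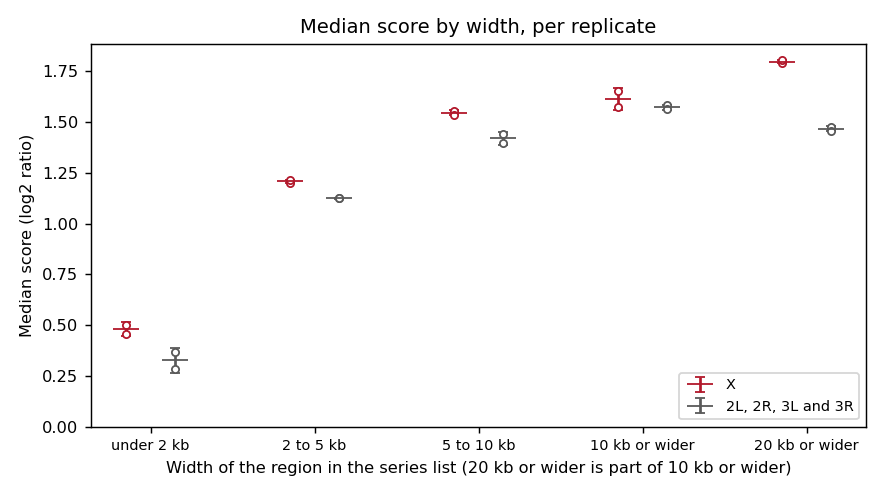
Median score (log2 ratio, the authors' value) of regions by their width in the series list, for X (red) and the 4 autosome arms together (grey). Open circles are the 2 replicates, bars their mean and whiskers the SD. X lies above the autosome arms in each class except that of 10 kb or wider, where the difference is 0.039 ± 0.066.

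The 10 X regions that scored highest in the series list were 2387 to 8787 bp wide, and each was a single region in both replicates. Most X regions were like this. Of all 776, 624 (80.4%) were single in both replicates and 13.1% were 10 kb or wider. The median series score on X rose with width, from 1.13 at 2 to 5 kb to 1.57 at 10 kb or wider. The first by the series list lay at 5321444 to 5328094 (6651 bp), with 3.20 in replicate 1 and 3.57 in replicate 2, and 427 bp from the region before it. The next, at 10637330 to 10641072 (3743 bp), scored 3.39 and 3.50, and that at 18960068 to 18964068 (4001 bp) scored 3.35 and 3.47. Replicate 2 gave the higher value for each of these 3.

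Of the other 7, those at 14962616, 13222720 and 15519214 had mean replicate scores of 3.37, 3.16 and 3.20. The regions starting at 15997580, 6891596 and 6167438 had means of 2.99, 2.88 and 2.88. The region starting at 6167438 belonged to the cluster of 8 regions. The tenth (16147182 to 16149920, 2739 bp) differed most between replicates, with 2.27 in replicate 1 and 3.42 in replicate 2. The highest series score on X was 3.38, below the 4.22 reached on the autosome arms. None of these 10 was among the 10 widest, whose highest series score was 2.49. With 10 of 776 regions in each set, few would be shared in any case.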

How the data were processed

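The deposited files are lists of called regions, 1 per ChIP replicate and 1 for the series, with positions on FlyBase r5, per the file headers of all 3. The submitters' processing notes name Bowtie 0.12.7. How regions were called, whether inputs were used and how replicates were joined is not given in the sources used here. The deposited score was read as a log2 ratio from the values: repeated scores of the series list lay apart by log2 of a whole-number ratio (both numbers at most 40, tolerance 1e-07) in 433 of 5356 pairs, against 1 with natural logarithms and 5 with base 10. Its numerator and denominator are not named.

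Regions named as depleted were left out. Widths, gaps, clusters and coverage were computed with Python 3.11.15 and pandas 2.3.3. Coverage, density, the median gap, the share of wide regions and the overlap rule were tested on simulated regions, and the cluster measures were not. Each measure was taken from the series list and again from the regions of each replicate that overlap its members, whose mean and SD (n = 2) give the error. Replicate regions that overlap none of these members do not enter that SD. A region's replicate score is the mean over overlapping replicate regions, weighted by width. No test across regions was made, since regions of a library are not replicates. Regions named are the 10 widest, the 10 highest in series score, the 5 largest clusters, the 5 longest gaps, the first and last region and the extreme 1 Mb windows. The region set and the measures were chosen with earlier results of these data known. Sequences and genes are not shown, since no genome of this build was used here.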

Additional observations from a re-analysis of the deposited data

How the results depend on the processing

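Of 107 alternative values over 12 results, 27 moved by less than the SD between replicates, 61 moved further with the same sign and 19 changed sign. Some of the 27, for wide neighbours and for scores of wide regions, could not move because the wide regions stayed the same. The excess of regions of 10 kb or wider on X kept its sign in all alternatives tried. It was 5.04 percentage points with reciprocal overlap of 50%, 4.22 over all enriched regions of the series list, 9.42 above the median score, 2.06 and 3.05 with edges of replicates 1 and 2, 9.81 at 5 kb and 1.07 at 20 kb. Joining regions within 1 kb, chosen after seeing the data, gave 8.49, and 5.21 and 4.53 in the replicates. Leaving out a replicate gave 5.75 to 5.92. Over all enriched regions and without a replicate, the wide regions were the same 102 on X and 223 on the autosome arms. Regions outside the shared set were at most 5635 bp wide on X and 6873 bp on the autosome arms. These settings therefore changed the total number of regions alone. The difference in covered share was 0.915, 4.15, 4.16, 2.35 and 2.38 in the same order, 4.12 without the outer 2 Mb of each arm, 3.43 to 3.46 without a replicate and -0.094 without wide regions, which removes the wide regions by construction. The ratio of regions per Mb was 0.902, 1.10, 1.16, 1.07 and 1.03 in that order, 1.02 without the outer 2 Mb and 1.01 to 1.02 without a replicate.

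The difference in median gap was 1240 bp with reciprocal overlap and -7796 bp above the median score, and -1468 to -850 bp without a replicate. The difference in gaps up to 5 kb was -2.65 percentage points with reciprocal overlap, 7.22 over all regions, 6.92 above the median score, 5.45 with edges of replicate 1 and 1.97 to 5.29 without a replicate. For gaps of 50 kb or more it was 1.55, -1.55, -7.21 and -1.55 under these 4 settings, -1.27 to -0.547 without a replicate, -3.08 at 20 kb and 0.143 at 100 kb. The difference in clustered regions was -5.01, 12.1, 5.81 and 7.42 under the same 4 settings, 1.52 to 7.10 without a replicate, -0.205 with chaining at 2 kb and 5.29 at 10 kb. For wide neighbours it was 2.12 and -0.221 with edges of replicates 1 and 2, 2.45 within 20 kb and 14.4 within 100 kb. Without a replicate it was fixed at 8.69, since the wide regions were the same.

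Distal coverage differed by -0.466 with reciprocal overlap, 2.35 over all regions, 5.99 above the median score, 1.22 with edges of replicate 1, 1.73 to 2.32 without a replicate, -4.27 at 1 Mb, 3.41 at 4 Mb and -16.3 at 0.5 Mb (chosen after seeing the data). Proximal coverage differed by -4.59 with reciprocal overlap, -1.10 above the median score, -4.31 with edges of replicate 1, -4.32 to -3.89 without a replicate, -1.59 at 1 Mb, 0.753 at 4 Mb and -0.657 without 3R (chosen after seeing the data). The score difference from 2 to 5 kb was 0.093 with reciprocal overlap, 0.0028 over all regions, 0.11 and 0.096 with replicate edges and 0.023 to 0.039 without a replicate. At 10 kb or wider it was 0.014 with reciprocal overlap, 0.096 and 0.089 with replicate edges, 0.10 from 5 kb and 0.32 from 20 kb. Without a replicate it was fixed at 0.021, since the wide regions were the same. Keeping the regions above the median score is a selection by score. The cause of the remaining changes was not tested.

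The depth of the libraries is unknown, so absence from a list was not told apart from too few reads. No paired analysis was possible because pairing ChIP with input by replicate number needs input values, which were not analysed here. X and the autosome arms were set against each other within each replicate throughout.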

Other observations

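One stretch of X held an unusual number of regions that the replicates did not share. Between the X regions ending before 12119395 and starting after 12355915, the series list had 23 enriched regions, none of which overlapped both replicates. No other gap between neighbouring X regions held more than 8 such regions, and none on the autosome arms held more than 6. The 23 regions lay within 103 kb (12120642 to 12223710) and were 1009 to 3813 bp wide. Their series scores were even and low, from 0.30 to 0.74 with a median of 0.53, against a median of 0.45 for all X regions outside the shared set. Replicate 1 alone overlapped 7 of them and replicate 2 alone 3, while 13 overlapped neither. The regions of replicate 1 in the stretch scored 0.54 to 1.01 and those of replicate 2 scored 0.50 to 0.87. The shared region just before it (12115972 to 12119394) scored 0.53 in the series list, and the one just after (12355916 to 12358726) scored 1.89. Leaving the 23 regions out, 776 of 1045 enriched X regions (74.3%) were found in both replicates, still a smaller share than the 80.2% of 2L, the lowest of the autosome arms. This stretch was chosen for description after its values were seen.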
